A study of Mus musculus with 16 samples.

Results

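The 49 genes described here are named genes of cell cycle progression and DNA replication, measured by RNA-Seq in memory CD4+ T cells from mouse spleen. They were chosen by name and not by a threshold on their values, though with earlier results of these data known. All 49 were found among the 56748 genes listed, and all 49 passed the filter on low counts in every comparison. By known role, 12 act in mitotic entry and exit, 18 in the spindle, the kinetochore and chromosome structure, 4 in nucleotide supply, 4 as regulators of the passage from G1 to S, and 11 at replication origins, in the replicative helicase and at the fork.

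A cell that divides first licenses its replication origins by loading the MCM helicase, then copies its DNA in S phase with the sliding clamp PCNA, and finally separates the copies on the mitotic spindle. Transcription factors of the E2F family act on many S phase genes, and the MuvB complex, together with the B-MYB and FOXM1 proteins, acts on many genes of mitosis. In memory T cells most cells rest and some divide at any time. In bulk RNA, fewer dividing cells and less of this RNA per dividing cell cannot be told apart.

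The study addressed what HP1a and HP1g, chromosomal proteins of heterochromatin, do in CD4+ T cells. Of the 16 samples, 4 each were HP1a KO, HP1a WT, HP1g KO and HP1g WT, and all were CD4+ CD25 low or negative, CD62L-, CD44 high cells sorted from spleens of mice with a mixed 129/Sv and C57BL/6 background. In the HP1a line, floxed Hp1a had been excised in the whole animal by a CMV-driven Cre, and KO and WT animals were littermates from crossed heterozygotes. In the HP1g line both groups were homozygous for floxed Hp1g and only the KO mice carried Cd4-cre, so that Cre itself and the loss of HP1g cannot be told apart in that line. WT mice of the HP1g line thus carry a floxed allele that WT mice of the HP1a line lack.

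Total counts ran from 26694045 to 40199637 per sample. Cbx5, which encodes HP1a, lay between 23.0 and 29.2 CPM (counts scaled to the size of each library) in the HP1a KO samples and between 33.9 and 54.6 CPM in HP1a WT. Cbx3, which encodes HP1g, lay between 45.4 and 49.3 CPM in the HP1g KO samples and between 73.4 and 92.0 CPM in HP1g WT. Neither pair of groups overlapped, and counts of each targeted gene remained in its KO samples. Counts are per gene, so which exons they come from was not tested. Markers of CD4 T cells were present in every sample, with a sum of 5518 to 6576 CPM over 9 genes. Markers of other cells were also present: the 10 B cell markers summed to 311 to 790 CPM and the 9 erythroid markers found to 26.8 to 1231 CPM, while Cd8a and Cd8b1 together did not pass 18.4 CPM.

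Levels differed widely between the genes. On the TPM scale, which corrects for length, Pcna, the sliding clamp of replication, had the highest mean over the 16 samples (292 TPM), followed by the centromeric histone Cenpa (110.4 TPM) and by Cdt1, which loads the helicase at origins (84.3 TPM). The lowest were the kinase Melk (2.05 TPM), the checkpoint kinase Bub1 (2.08 TPM) and the kinetochore protein Cenpf (2.14 TPM). The median mean level was 41.1 TPM for the replication genes, 24.2 TPM for nucleotide supply, 11.4 TPM for mitotic entry and exit, 7.04 TPM for spindle and chromosome structure and 5.38 TPM for the G1 to S regulators. Within roles, the extremes were Ube2c (23.0 TPM) and Melk for mitotic entry and exit, Cenpa and Bub1 for the spindle group, Rrm1 (40.4 TPM) and Tk1 (19.1 TPM) for nucleotide supply, Ccne2 (10.7 TPM) and E2f8 (3.95 TPM) for the G1 to S regulators, and Pcna and Cdc6 (4.25 TPM) for replication. Mki67, the Ki-67 protein of dividing cells, had a mean of 25.6 TPM.

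The genes of mitosis varied more from sample to sample than those of replication. The ratio of the highest to the lowest CPM over the 16 samples had a median of 2.57 for mitotic entry and exit. It was 2.48 for the spindle group, 2.49 for the G1 to S regulators, 2.08 for nucleotide supply and 1.62 for the replication genes. These roles also differed in level, and the part of counting error in the ratios was not tested. HP1a WT replicate 3 held the highest value of the 16 samples for 31 of the 49 genes, and HP1g KO replicate 1 held the lowest for 23. In HP1a WT replicate 3 the genes of mitotic entry and exit lay at a median of 1.74 times their average over samples, against 1.16 times for the replication genes. In HP1g KO replicate 1 the spindle group lay at 0.641 times its average and the replication genes at 1.01 times. HP1a KO replicate 2 (0.757 times for mitotic entry and exit) and HP1a WT replicate 4 (0.865 times) also lay low in every role, while HP1g WT replicate 2 lay high (1.34 times). In the HP1g line no KO sample lay above the average for either group of mitosis genes, and WT replicates 1, 3 and 4 did not either.

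**Figure D1:**
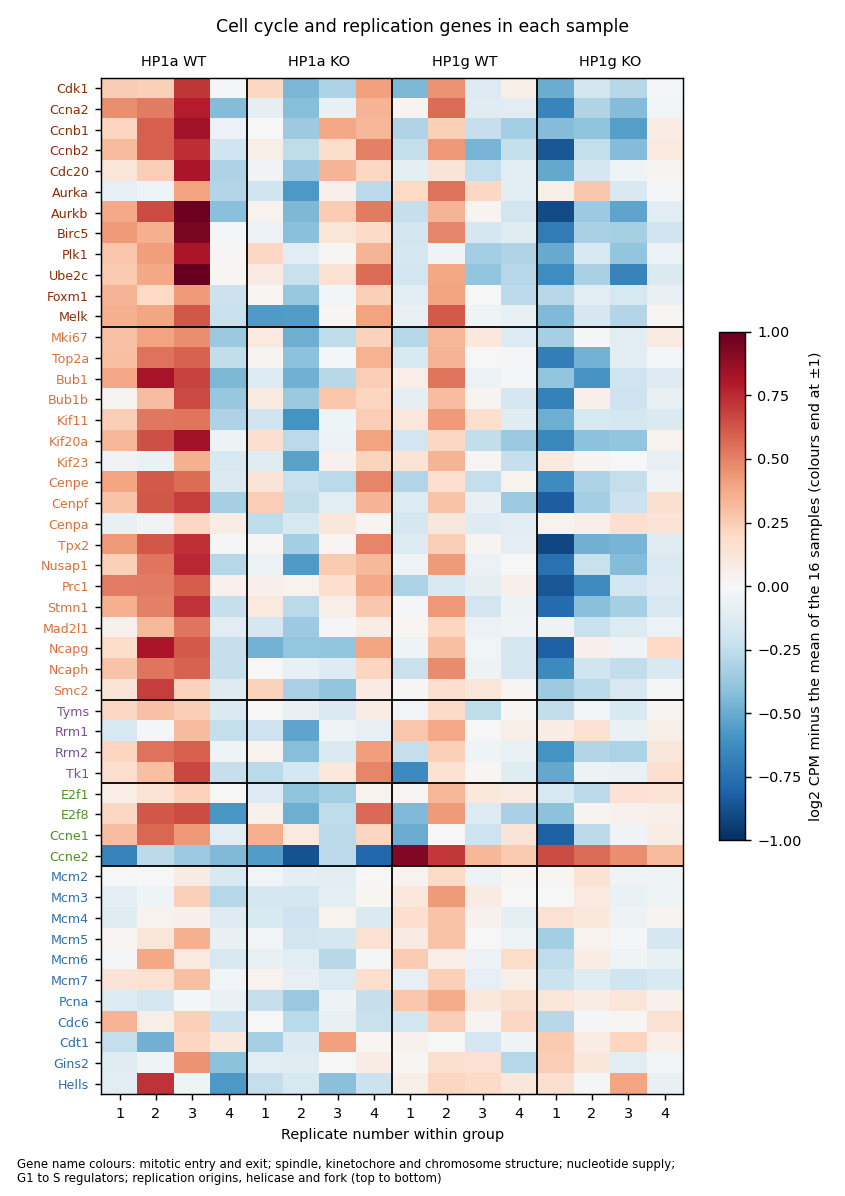
Each row is 1 of the 49 genes and each column 1 of the 16 samples, grouped as HP1a WT, HP1a KO, HP1g WT and HP1g KO. Colour gives log2 CPM minus the gene's mean over the 16 samples, and black lines separate groups and roles. HP1a WT replicate 3 is high and HP1g KO replicate 1 is low for most genes of mitosis, the replication genes at the bottom are paler, and Ccne2 is lower in all 8 samples of the HP1a line than in any of the HP1g line.

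The bases before the start sites of these genes are shown first for 4 of them, since the mitosis and replication genes differed in the motifs they held there. The sequences come from the RefSeq promoter table of build GRCm38.p6, in which each window runs from 250 bases before a start to 50 bases after it, and they were located in GRCm39 by exact match. Only the part before the first annotated exon is printed, 5′ to 3′ on the gene's strand. Searched were the letters bound by E2F (either TTCCCGC or TTGGCGC or TTCGCGC or TTGCCGC), the cell cycle homology region bound by MuvB (CHR, TTTGAA) and the motif bound by NF-Y (CCAAT), each on both strands, and capitals mark every match, where matches may overlap. Cdk1, the main kinase of mitosis, is read from the minus strand at chr10:69188773-69188992 of GRCm39, in an intron of a longer Cdk1 transcript. Top2a, which untangles DNA before chromosomes separate, is read from the minus strand at chr11:98915063-98915265, between genes. The helicase subunits Mcm5, at chr8:75835887-75836136 on the plus strand, and Mcm6, at chr1:128287517-128287692 on the minus strand, are also read between genes.
Cdk1: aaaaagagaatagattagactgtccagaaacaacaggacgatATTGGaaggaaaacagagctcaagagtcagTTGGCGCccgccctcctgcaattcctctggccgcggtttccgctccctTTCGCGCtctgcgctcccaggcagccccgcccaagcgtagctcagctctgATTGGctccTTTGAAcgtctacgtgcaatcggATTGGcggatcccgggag
Top2a: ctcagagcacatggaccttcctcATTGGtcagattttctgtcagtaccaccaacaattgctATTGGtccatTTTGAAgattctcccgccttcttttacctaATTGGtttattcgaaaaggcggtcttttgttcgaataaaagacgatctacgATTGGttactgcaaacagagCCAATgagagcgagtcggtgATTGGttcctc
Mcm5: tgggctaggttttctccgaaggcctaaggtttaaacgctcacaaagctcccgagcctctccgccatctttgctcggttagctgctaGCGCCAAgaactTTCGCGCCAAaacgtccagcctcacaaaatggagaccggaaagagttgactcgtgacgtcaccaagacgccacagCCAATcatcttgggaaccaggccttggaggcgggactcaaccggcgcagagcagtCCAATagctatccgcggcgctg
Mcm6: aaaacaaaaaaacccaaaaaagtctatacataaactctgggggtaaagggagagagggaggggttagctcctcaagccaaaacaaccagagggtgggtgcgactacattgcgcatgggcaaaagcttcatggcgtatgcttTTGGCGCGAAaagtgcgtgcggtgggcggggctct

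The stretch of Cdk1 held 2 E2F matches, 1 CHR and 3 CCAAT. That of Top2a held 1 CHR and 6 CCAAT and no E2F match. Mcm5 held 3 E2F matches, of which a pair overlaps, with 2 CCAAT and no CHR, and Mcm6 held 2 overlapping E2F matches and neither of the other motifs. Over the whole 300-base windows, 40 of the 49 genes had an entry, with 42 windows. E2F letters were in 8 of 10 windows of replication genes (80%), in 2 of 9 of mitotic entry and exit (22.2%) and in 3 of 16 of the spindle group (18.8%), against 9.57% of all 32851 windows in the table. CHR letters were in 6 of 9 windows of mitotic entry and exit (66.7%), in 11 of 16 of the spindle group (68.8%) and in 1 of 10 of the replication genes (10%), against 17.9% of all windows. CCAAT was in 71.4% of the 42 windows and in 37.4% of all windows, and CHR together with CCAAT was in 45.2% and 6.95%. A match is a match of letters and not a measured site, and no binding was measured here.

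**Figure D2:**
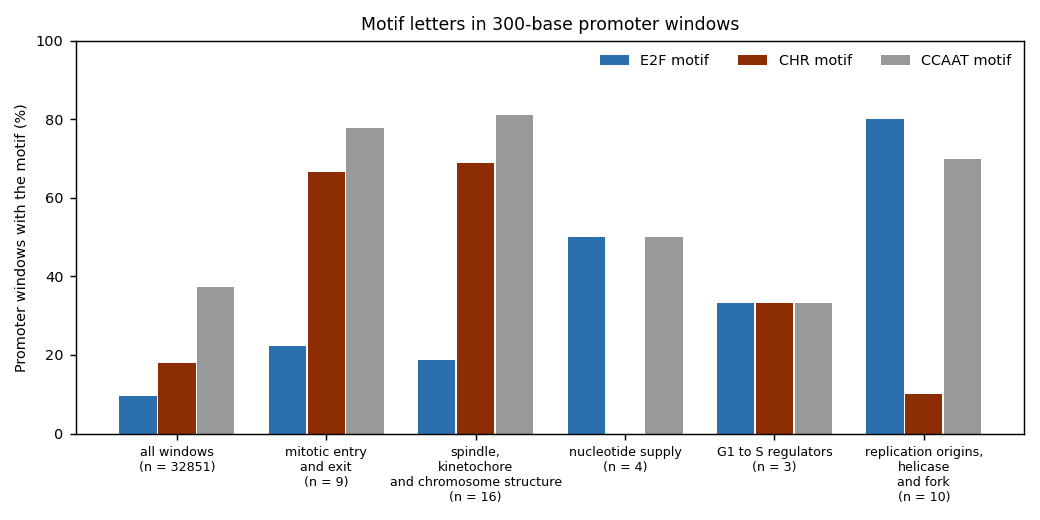
Bars give the percentage of 300-base promoter windows that hold E2F, CHR or CCAAT letters on either strand, for all 32851 windows and for the windows of each role (number of windows under each name). Blue E2F bars are highest for the replication genes (80%), and brown CHR bars are highest for both groups of mitosis genes (66.7% and 68.8%).

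The comparison of HP1a KO with HP1a WT asks whether the loss of HP1a in the whole animal goes with another level of these genes. None of the 49 was called at an adjusted p under 0.05 in edgeR's quasi-likelihood test, and the background was 0% of the 14881 genes tested. DESeq2 called none of the 49 either. Unadjusted p under 0.05 was reached by 4 of the 49 and by 4.27% of all genes. The log2 fold change was below 0 for 48 of the 49 (Cdt1 was the exception), against 49.1% of all genes tested, and its median was -0.29, against 0.003 over all genes. The genes moved together from sample to sample, so these are not 49 separate observations.

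By role, the median log2 fold change in HP1a KO was -0.32 for the spindle group, -0.31 for mitotic entry and exit, -0.24 for the G1 to S regulators, -0.20 for nucleotide supply and -0.12 for the replication genes. These medians depend on single libraries. Without HP1a WT replicate 3 the median over the 49 genes was -0.16 and 43 were below 0. Without HP1a WT replicate 4 the median was -0.41, and the other omissions lay between these values. In HP1a WT replicate 3 the 9 erythroid markers summed to 554 CPM, against 26.8 to 73.4 CPM in the other HP1a WT samples. Its sums were also the highest of the HP1a WT samples for B cell (568 CPM), plasma cell (242 CPM) and myeloid markers (120.5 CPM). HP1a KO replicate 3 had higher sums for these lists (790, 289 and 148 CPM) and a lower erythroid sum (181 CPM). That KO sample held the highest value of the 16 samples for 1 gene. What part these other cells had in the result was not tested.

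Among the genes followed sample by sample, replicates are given in the order 1 to 4. Cdk1 stood at 8.31, 5.24, 5.83 and 9.54 CPM in HP1a KO and at 8.57, 8.50, 11.8 and 7.10 CPM in HP1a WT. Its partner Ccnb1, cyclin B1, stood at 5.96, 4.63, 7.79 and 7.53 CPM in HP1a KO and at 6.93, 9.01, 10.7 and 5.73 CPM in HP1a WT. For both, HP1a WT replicate 3 was highest and the groups overlapped. Cdk1 differed by -0.31 (SE 0.21) and Ccnb1 by -0.32 (SE 0.22) on the log2 scale, each with an adjusted p of 0.946 in edgeR's quasi-likelihood test.

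Mki67 stood at 169.8, 113, 133 and 187 CPM in HP1a KO and at 194, 210.2, 219 and 123 CPM in HP1a WT, or 151 ± 33.5 CPM (SD, n = 4) against 187 ± 43.7 CPM (SD, n = 4). Top2a stood at 70.1, 51.7, 68.2 and 87.2 CPM in HP1a KO and at 84.4, 100.3, 103 and 57.9 CPM in HP1a WT. WT replicates 2 and 3 were the highest samples and WT replicate 4 lay below 3 of the 4 KO samples in both genes, so the groups overlapped. The log2 fold change was -0.31 (SE 0.19) for Mki67, with a 95% interval of -0.74 to 0.12, and -0.32 (SE 0.19) for Top2a (adjusted p = 0.946 for both, edgeR's quasi-likelihood test).

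Rrm2, the regulated subunit of ribonucleotide reductase, stood at 24.7, 18.0, 21.8 and 32.1 CPM in HP1a KO and at 27.9, 35.2, 36.5 and 23.3 CPM in HP1a WT, with a log2 fold change of -0.35 (SE 0.18). E2f1, a transcription factor of S phase entry, had the smallest unadjusted p of the 49 genes (0.025). It stood at 8.46, 7.01, 7.35 and 9.47 CPM in HP1a KO and at 9.67, 10.2, 10.8 and 9.25 CPM in HP1a WT. HP1a KO replicate 4 lay within the WT range and the other KO samples below it, and the log2 fold change of -0.31 (SE 0.12) did not pass the correction over all genes (adjusted p = 0.946, edgeR's quasi-likelihood test).

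For the replication genes, Mcm5 stood at 66.9, 60.1, 60.5 and 75.7 CPM in HP1a KO and at 69.1, 74.3, 87.3 and 64.8 CPM in HP1a WT. Pcna stood at 208, 188, 236 and 208 CPM in HP1a KO and at 222, 218, 242 and 233 CPM in HP1a WT. Both pairs of groups overlapped. The log2 fold changes were -0.17 (SE 0.10) and -0.12 (SE 0.07), with 95% intervals of -0.40 to 0.06 and -0.29 to 0.04.

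After E2f1, the smallest p-values belonged to genes of mitosis. Birc5, survivin of the chromosomal passenger complex, stood at 10.8, 8.43, 12.3 and 12.9 CPM in HP1a KO and at 15.2, 14.4, 21.7 and 11.2 CPM in HP1a WT. Mad2l1, a spindle checkpoint protein, stood at 15.4, 13.5, 17.3 and 18.3 CPM in HP1a KO and at 17.9, 21.8, 25.2 and 16.2 CPM in HP1a WT. In both genes HP1a KO replicates 3 and 4 lay within the WT range and replicates 1 and 2 below it. The condensin subunit Ncapg and the checkpoint kinase Bub1 had the largest log2 fold changes of the 49, at -0.57 (SE 0.26) and -0.57 (SE 0.26), and Birc5 had -0.49 (SE 0.20) and Mad2l1 -0.33 (SE 0.15). The adjusted p was 0.946 for all 4 in edgeR's quasi-likelihood test. None of the 49 genes had HP1a KO and WT samples that did not overlap, against 1.71% of all genes higher and 1.4% lower. The 95% interval lay within a 2-fold change either way for 46 of the 49.

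**Figure D3:**
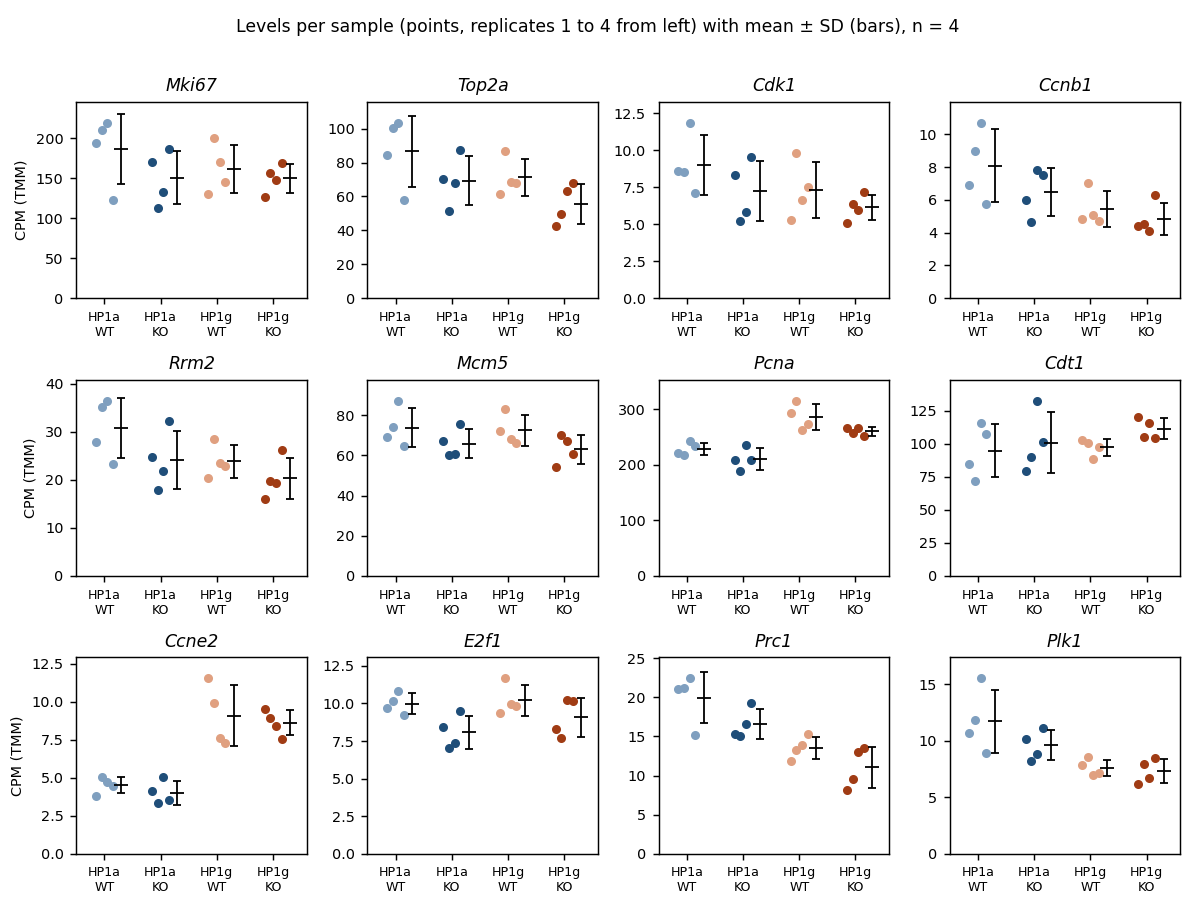
Each panel shows CPM in the 4 samples of each group (points, replicates 1 to 4 from left to right) with mean ± SD beside them (n = 4), on axes that start at 0. KO and WT points overlap within each line for Mki67, Top2a, Cdk1, Ccnb1, Rrm2, Mcm5 and E2f1, whereas Ccne2 separates the HP1g line (7.27 CPM and above) from the HP1a line (5.07 CPM and below).

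The comparison of HP1g KO with HP1g WT asks the same for HP1g, lost in T cells by Cd4-cre. None of the 49 genes was called, while 49 of 14975 genes were (0.327%), and DESeq2 also called none of the 49. Unadjusted p under 0.05 was reached by 13 of the 49, against 11.9% of all genes. The log2 fold change was below 0 for 43 of the 49 and for 49.9% of all genes, with a median of -0.16 against 0.0005. By role the median was -0.23 for the spindle group, -0.22 for mitotic entry and exit, -0.08 for nucleotide supply, -0.08 for the replication genes and -0.06 for the G1 to S regulators.

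These values too depend on single libraries. Without HP1g WT replicate 2 the median was -0.05 and 34 genes were below 0, and over all omissions the median ran from -0.20 to -0.05. The erythroid markers summed to 1027, 1231, 86.6 and 860.5 CPM in HP1g KO replicates 1 to 4 and to 53.3, 496.5, 544 and 76.4 CPM in those of HP1g WT. The highest sums were in KO replicate 2 and WT replicate 3, which each held the lowest value of the 16 samples for 1 gene. KO replicate 1, which held the lowest value for 23 of the 49 genes, had a sum of 1027 CPM. WT replicate 2, which held the highest value for 7 genes, had a sum of 496.5 CPM. The part of these cells in the result was not tested.

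Kif11, the kinesin that pushes spindle poles apart, had the smallest p of the 49 genes. It stood at 18.9, 23.7, 23.4 and 24.0 CPM in HP1g KO and at 28.5, 35.7, 29.8 and 24.4 CPM in HP1g WT. Every KO sample lay below every WT sample, though KO replicates 2 to 4 were within 1 CPM of the lowest WT sample. Kif11 differed by -0.37 (SE 0.12) on the log2 scale, with an adjusted p of 0.312 in edgeR's quasi-likelihood test.

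Tpx2, which activates Aurora A at the spindle, stood at 6.39, 8.62, 8.72 and 11.1 CPM in HP1g KO and at 10.9, 14.3, 12.2 and 11.2 CPM in HP1g WT. Stmn1, stathmin, which destabilizes microtubules, stood at 20.7, 26.3, 28.0 and 31.5 CPM in HP1g KO and at 34.8, 47.6, 31.1 and 34.0 CPM in HP1g WT. Only KO replicate 4 reached into the WT range in either gene. They differed by -0.46 (SE 0.16) and -0.45 (SE 0.15) on the log2 scale, the largest differences of the 49, with adjusted p of 0.34 and 0.331 in edgeR's quasi-likelihood test. Smc2, the core of condensin, stood at 17.5, 18.7, 20.2 and 22.3 CPM in HP1g KO and at 22.8, 25.2, 24.6 and 22.7 CPM in HP1g WT, all KO samples below all WT samples, with a log2 fold change of -0.25 (SE 0.09) and an adjusted p of 0.34 in the same test.

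Cdt1 went the other way. It stood at 120.1, 105, 116 and 104 CPM in HP1g KO and at 103, 100.5, 88.7 and 97.3 CPM in HP1g WT, every KO sample above every WT sample. The log2 fold change was 0.22 (SE 0.07) with an adjusted p of 0.331 in edgeR's quasi-likelihood test. Cdt1 was the only 1 of the 49 that was higher without overlap, against 2.94% of all genes, and 6 of 49 were lower without overlap (Kif11, Smc2, Nusap1, Bub1, Mcm7 and Birc5), against 4.65% of all genes.

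Of the genes followed in every comparison, Mki67 stood at 126, 156, 147 and 169.6 CPM in HP1g KO and at 130.2, 200.0, 171 and 145 CPM in HP1g WT, a log2 fold change of -0.09 (SE 0.13) with a 95% interval of -0.38 to 0.21. Top2a stood at 42.4, 49.4, 63.4 and 67.6 CPM in HP1g KO and at 61.7, 87.0, 68.5 and 68.0 CPM in HP1g WT (log2 fold change -0.33, SE 0.15). For Mki67 each KO sample except replicate 1 lay within the WT range, and for Top2a KO replicates 3 and 4 did. Cdk1 stood at 5.09, 6.33, 5.94 and 7.14 CPM in HP1g KO and at 5.29, 9.83, 6.60 and 7.48 CPM in HP1g WT (log2 fold change -0.23, SE 0.19). Ccnb1 stood at 4.42, 4.51, 4.07 and 6.30 CPM in HP1g KO and at 4.83, 7.05, 5.08 and 4.72 CPM in HP1g WT (log2 fold change -0.14, SE 0.19), and its sign turned when log2 TPM was tested. Both pairs of groups overlapped, with WT replicate 2 the highest sample.

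Rrm2 stood at 15.9, 19.7, 19.3 and 26.1 CPM in HP1g KO and at 20.4, 28.4, 23.4 and 23.0 CPM in HP1g WT (log2 fold change -0.21, SE 0.15). E2f1 stood at 8.29, 7.68, 10.2 and 10.1 CPM in HP1g KO and at 9.35, 11.7, 9.94 and 9.84 CPM in HP1g WT (log2 fold change -0.15, SE 0.12). The groups overlapped for both genes. Mcm5 stood at 54.0, 70.0, 67.3 and 60.6 CPM in HP1g KO and at 72.1, 83.2, 68.1 and 66.2 CPM in HP1g WT (log2 fold change -0.18, SE 0.10). Pcna stood at 266, 256, 266 and 251 CPM in HP1g KO and at 294, 315, 262 and 273 CPM in HP1g WT (log2 fold change -0.12, SE 0.07). Pcna was among the most precisely measured, with a 95% interval of -0.27 to 0.03. All 49 intervals lay within a 2-fold change either way.

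The other genes of the 5 roles lay in narrow ranges. The MCM subunits, which form the ring of the helicase, had log2 fold changes in HP1a KO from -0.21 for Mcm6 to -0.05 for Mcm2, and in HP1g KO from -0.18 for Mcm7 to -0.007 for Mcm2. Mcm7 stood at 43.3, 46.1, 43.7 and 45.2 CPM in HP1g KO and at 47.3, 59.1, 47.2 and 52.1 CPM in HP1g WT, with every KO sample below every WT sample. It shares annotated sequence with the neighbouring gene Cops6, and neither fold change passed the correction. Cdc6, which helps to load the MCM ring, was at -0.26 and -0.08, and Gins2 of the active helicase at -0.04 and 0.06 in HP1a KO and HP1g KO.

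For nucleotide supply the log2 fold changes in HP1a KO were -0.20 for the thymidylate synthase Tyms, -0.19 for the thymidine kinase Tk1 and -0.20 for Rrm1, and in HP1g KO they were -0.06, 0.05 and -0.11. The 12 genes of mitotic entry and exit were all below 0 in both lines, from -0.49 for Birc5 to -0.22 in HP1a KO and from -0.43 for Ccna2 to -0.03 in HP1g KO. Ccna2, cyclin A2, stood at 15.8, 12.5, 16.03 and 21.3 CPM in HP1a KO and at 23.3, 24.2, 29.0 and 12.5 CPM in HP1a WT, and at 10.7, 13.7, 12.5 and 16.6 CPM in HP1g KO and 17.2, 24.8, 15.5 and 15.7 CPM in HP1g WT. The groups overlapped in both lines. Aurkb, the kinase of the chromosomal passenger complex, was at -0.35 and -0.43, and the smallest adjusted p of any of the 49 genes in either line was that of Kif11.

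Of 97 other genes of the pathway, taken from a list of origin and fork genes, mitotic genes, G1 cyclins and kinases, inhibitors, and E2F, pocket protein and MuvB genes, none was called in HP1a KO by edgeR's quasi-likelihood test and 1 was called in HP1g KO. The background was 0% and 0.327% of all genes. Unadjusted p under 0.05 was reached by 5 of the 97 in HP1a KO and by 9 in HP1g KO, against 4.27% and 11.9% of all genes, and DESeq2 called 1 gene higher and 4 lower among all genes in HP1a KO. The call in HP1g KO was Cdk4, the kinase that cyclin D activates in G1. It stood at 62.9, 66.2, 67.0 and 71.1 CPM in HP1g KO and at 89.4, 89.7, 83.3 and 86.0 CPM in HP1g WT, all KO samples below all WT samples. Cdk4 fell by 0.36 on the log2 scale (SE 0.06, adjusted p = 0.0316, edgeR's quasi-likelihood test), and in the HP1a line it stood at 92.0, 92.1, 88.6 and 93.0 CPM in KO and at 94.1, 96.7, 94.1 and 91.3 CPM in WT. Calls among the 97, here and below, were not followed under the alternatives run. The median log2 fold change over the 32 other mitotic genes was -0.34 in HP1a KO and -0.19 in HP1g KO, and over the 32 other origin and fork genes it was -0.15 and -0.06.

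Whether the 2 knockouts differed in their effect was tested as an interaction over all 16 samples. None of the 49 genes was called, against 0.0507% of 15776 genes, and 1 of 49 had an unadjusted p under 0.05, against 9.58%. That gene was Cenpa. It stood at 74.3, 79.3, 95.9 and 90.5 CPM in HP1a KO, 84.2, 86.7, 103 and 93.5 CPM in HP1a WT, 91.1, 93.0, 100.0 and 97.4 CPM in HP1g KO and 79.2, 96.0, 81.1 and 82.0 CPM in HP1g WT. The knockout effect was -0.11 in the HP1a line and 0.20 in the HP1g line, and the difference of -0.30 (SE 0.13) had an adjusted p of 0.47 in edgeR's quasi-likelihood test. Over the 49 genes the median difference was -0.08 and 36 were below 0 (49.4% of all genes), and without HP1a WT replicate 3 the median was 0.03 and 22 were below 0. DESeq2 called none of the 49 in this test either. For Mki67 it was -0.22 (SE 0.26), with a 95% interval of -0.76 to 0.33.

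**Figure D4:**
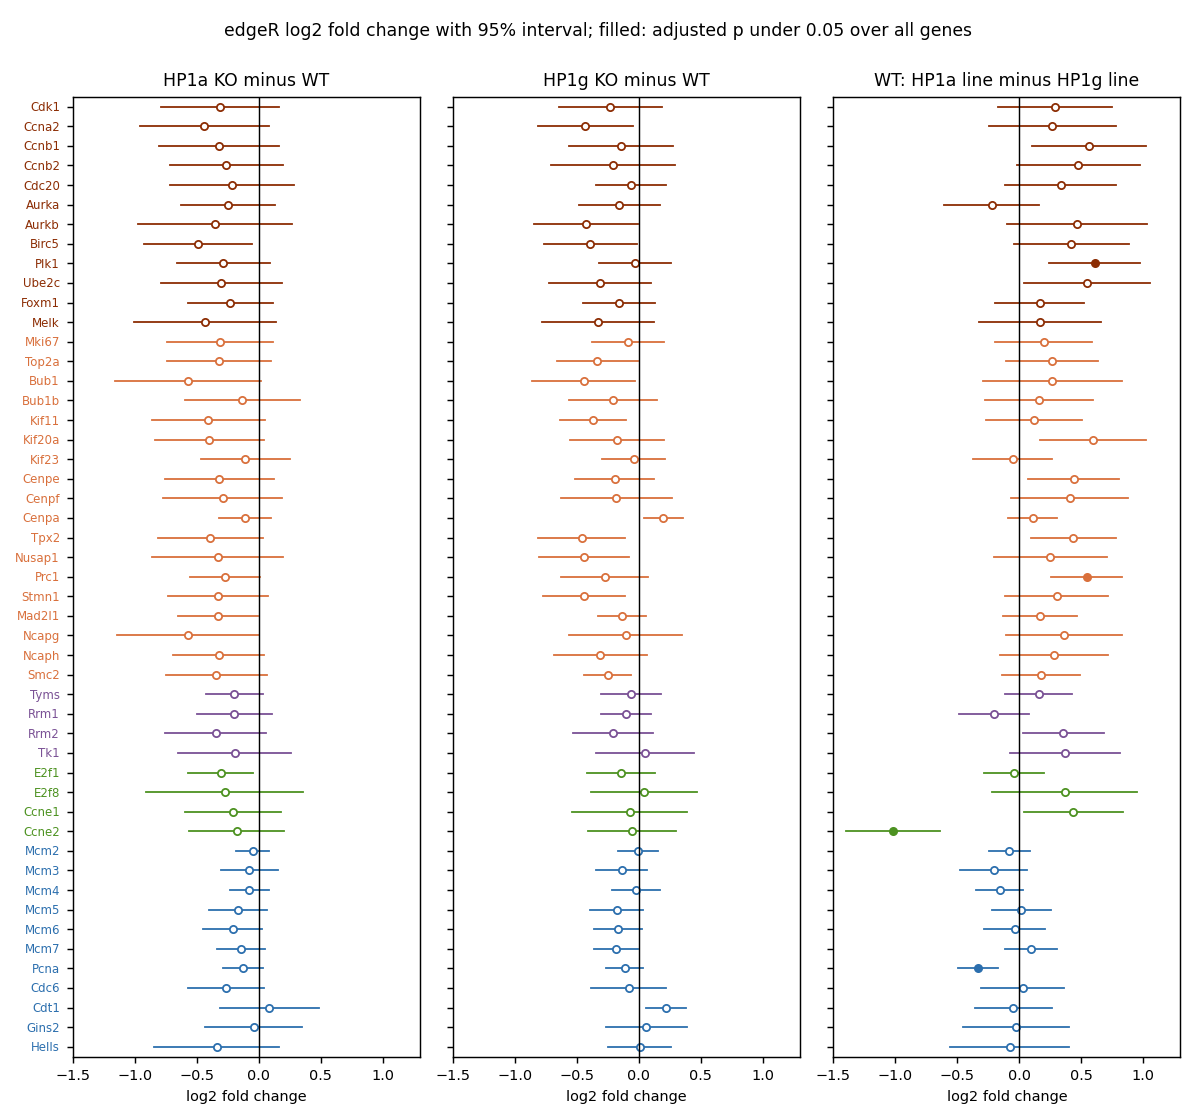
Points give the log2 fold change of each of the 49 genes (rows, coloured by role) for HP1a KO minus WT, HP1g KO minus WT and HP1a WT minus HP1g WT, and lines give the 95% interval from edgeR. Filled points have an adjusted p under 0.05 over all genes, which holds for none in either KO panel and for Ccne2, Pcna, Prc1 and Plk1 in the panel of the WT groups.

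The WT groups of the lines differed for 4 of the 49 genes (8.25% of all 14804 genes were called lower and 4.55% higher in HP1a WT, 12.8% together). This share of the 49 was below the background, as was that with an unadjusted p under 0.05 (11 of 49, against 29.9%). The lines were bred separately, only the HP1g line is floxed in its WT mice, and these WT samples are the same ones that serve as controls above, so line, floxed allele and any difference in preparation cannot be told apart. The sum of the 10 B cell markers was 400 to 568 CPM in HP1a WT and 311 to 372 CPM in HP1g WT (p = 0.0286 in a two-sided exact permutation test, as low as 4 against 4 can give), and that of the 6 plasma cell markers was 146 to 242 CPM and 322 to 442 CPM (p = 0.0286, exact permutation test). All 10 and 5 of the 6 genes of these lists passed 1 CPM in at least 1 sample, and none was at 0 in all samples. The 6 markers of memory CD4 T cells also differed in sum, at 1629 to 1811 CPM in HP1a WT and 2052 to 2165 CPM in HP1g WT (p = 0.0286, exact permutation test). Exact p-values here and below were not corrected over the marker lists. Gene by gene, edgeR called 0 of the 10 B cell markers. It called 3 of the 5 plasma cell markers tested and 1 of the 6 memory markers, all lower in HP1a WT. The part of these cells in the result was not tested.

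Ccne2, cyclin E2, which activates CDK2 at the start of S phase, had the largest change of the 49. It stood at 3.81, 5.07, 4.73 and 4.47 CPM in HP1a WT and at 11.5, 9.91, 7.63 and 7.27 CPM in HP1g WT. Every HP1a WT sample lay below every HP1g WT sample, at 4.52 ± 0.53 CPM (SD, n = 4) against 9.09 ± 2.01 CPM (SD, n = 4). It differed by -1.02 (SE 0.17) on the log2 scale, with an adjusted p of 0.0069 in edgeR's quasi-likelihood test, and it kept this call under every alternative run (highest adjusted p 0.0422, with a replicate block). Ccne2 was the only 1 of the 49 past both that threshold and an absolute log2 fold change of 1 (1.9% of all genes). Its relative Ccne1, cyclin E1, went the other way, at 6.88 against 5.04 CPM, with an adjusted p of 0.134 in the same test. Ccne2 spans chr4:11190303-11204947 of GRCm39 and shares annotated sequence with the overlapping gene Ints8, which had a mean of 1149.9 counts against 217.5 for Ccne2.

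Pcna stood at 222, 218, 242 and 233 CPM in HP1a WT and at 294, 315, 262 and 273 CPM in HP1g WT. All 4 HP1a WT samples were below all 4 HP1g WT samples, and the log2 fold change was -0.33 (SE 0.07), with an adjusted p of 0.0191 in edgeR's quasi-likelihood test. A processed pseudogene, Pcna-ps2, shares sequence with it but had a mean of 60.6 counts against 8229.7 for Pcna. The call was lost without HP1a WT replicate 1 and without HP1g WT replicate 1 or 2 (adjusted p = 0.0721, 0.059 and 0.0614, edgeR's quasi-likelihood test).

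Prc1, which bundles microtubules between the separating chromosomes, stood at 21.1, 21.2, 22.4 and 15.2 CPM in HP1a WT and at 11.8, 13.3, 13.9 and 15.3 CPM in HP1g WT. Plk1, a kinase of mitotic entry and spindle assembly, stood at 10.7, 11.8, 15.5 and 8.87 CPM in HP1a WT and at 7.80, 8.53, 6.96 and 7.15 CPM in HP1g WT. HP1a WT replicate 4 lay just under the highest HP1g WT sample for Prc1, and the groups did not overlap for Plk1. Prc1 rose by 0.54 (SE 0.13) and Plk1 by 0.61 (SE 0.17) on the log2 scale in HP1a WT (adjusted p = 0.0251 and 0.0383, edgeR's quasi-likelihood test). Plk1 kept its call without HP1a WT replicate 4 but lost it in each of the other 7 fits that left out 1 sample (highest adjusted p 0.0901, edgeR's quasi-likelihood test), and Prc1 lost it without HP1a WT replicate 1, 2 or 3 or HP1g WT replicate 1 or 2 (highest adjusted p 0.0797). With limma on log2(TPM + 1) the adjusted p was 0.0678 for Prc1 and 0.0754 for Plk1, and with a replicate block in edgeR it was 0.0804 and 0.0858. Plk1 was the only 1 of the 49 higher without overlap, against 9.36% of all genes, and Ccne2 and Pcna were the 2 lower without overlap, against 10.2%.

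The other followed genes were not called between the WT groups. The log2 fold change of HP1a WT against HP1g WT was 0.56 (SE 0.21) for Ccnb1, 0.35 (SE 0.15) for Rrm2, 0.29 (SE 0.21) for Cdk1, 0.27 (SE 0.17) for Top2a, 0.20 (SE 0.18) for Mki67, 0.02 (SE 0.11) for Mcm5 and -0.04 (SE 0.11) for E2f1, and the smallest adjusted p of these was 0.0991 in edgeR's quasi-likelihood test. DESeq2 called Ccnb1 too (adjusted p = 0.0487). Over the 49 genes 36 were above 0 with a median of 0.20, against 52.1% of all genes and a median of 0.02, and the median ran from 0.11 without HP1a WT replicate 3 to 0.37 without HP1g WT replicate 2. By role the median was 0.38 for mitotic entry and exit, 0.27 for the spindle group and -0.05 for the replication genes.

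The KO groups of the lines were also compared, which was added after the data were seen. This is another contrast than that of the WT groups, since the lost protein and the Cre differ along with the line, and these cannot be told apart. Of the 49 genes 6 were called, against 32.8% of 15020 genes, with 3 higher in HP1a KO (16% of all genes) and 3 lower (16.8%). Unadjusted p under 0.05 was reached by 13 of the 49, against 44.8%, and 31 were above 0, against 51.1%. Ccne2 stood at 4.12, 3.31, 5.06 and 3.52 CPM in HP1a KO and at 9.55, 8.96, 8.40 and 7.58 CPM in HP1g KO, with every HP1a KO sample below every HP1g KO sample, and the log2 fold change was -1.13 (SE 0.16), with an adjusted p of 0.00155 in edgeR's quasi-likelihood test. Pcna was lower too (log2 fold change -0.33, SE 0.07, adjusted p = 0.00851, same test) and Prc1 higher (log2 fold change 0.56, SE 0.16, adjusted p = 0.0212, same test), both without overlap. Ccne2 was the only 1 past an absolute log2 fold change of 1 as well (4.33% of all genes), Prc1 and Ncaph were higher without overlap (17.9% of all genes), and Ccne2, Pcna and Hells lower (15%).

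Plk1, at 0.37 (SE 0.14), had an adjusted p of 0.0628 in edgeR's quasi-likelihood test. The 3 further calls were Hells, a chromatin remodeller (log2 fold change -0.41, SE 0.12), Ube2c, which hands ubiquitin to the anaphase-promoting complex (log2 fold change 0.57, SE 0.17), and Stmn1 (log2 fold change 0.43, SE 0.14). With limma on log2 TPM neither these 3 nor Prc1 was called. Prc1 lost its call without HP1g KO replicate 2 or HP1a KO replicate 4 (adjusted p = 0.0645 and 0.0625, edgeR's quasi-likelihood test). On the log2(TPM + 1) scale, with limma, the Ccne2 difference was -0.50 between the KO groups (adjusted p = 0.12) and -0.80 between the WT groups (adjusted p = 0.0201). The group means of Ccne2 on that unlogged scale were 8.65 TPM in HP1a KO, 7.87 in HP1a WT, 12.1 in HP1g KO and 14.1 in HP1g WT, so that the size of its difference between the KO groups depends on whether counts or TPM are used. Mki67 differed by -0.01 (SE 0.15) between the KO groups, with a 95% interval of -0.34 to 0.31. Markers of other cells differed between the KO groups too. The plasma cell markers summed to 151 to 289 CPM in HP1a KO and 432 to 465 CPM in HP1g KO, and the B cell markers to 452 to 790 CPM and 319 to 427 CPM (p = 0.0286 for each, exact permutation test). The erythroid markers summed to 40.7 to 195 CPM in HP1a KO and 86.6 to 1231 CPM in HP1g KO, with all 6 of those tested called lower in HP1a KO by edgeR, and 2 of 6 dendritic cell markers were called lower. The part of these cells was not tested.

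Among the 97 other pathway genes, 12 differed between the WT groups, 6 higher and 6 lower in HP1a WT, a share close to the 12.8% of all genes (4.55% higher and 8.25% lower). These calls are given as values of single genes. Of the 6 lower ones, 3 are inhibitors of the cell cycle, a grouping that was not tested. Btg1, an antiproliferative factor, stood at 2507, 2326, 2365 and 2465 CPM in HP1a WT and 3923, 3960.0, 3129 and 3377 CPM in HP1g WT (log2 fold change -0.58, SE 0.09, adjusted p = 0.00403, edgeR's quasi-likelihood test). Cdkn1a, the p21 inhibitor, stood at 40.9, 24.1, 69.6 and 48.8 CPM in HP1a WT and 121, 89.8, 95.4 and 112 CPM in HP1g WT (log2 fold change -1.20, SE 0.26, adjusted p = 0.0173, same test). Cdkn2b, the p15 inhibitor of CDK4 and CDK6, was at 1.40 against 3.16 CPM (log2 fold change -1.18, SE 0.24). None of the 3 overlapped between the groups.

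At replication origins, Orc1 and Orc6 of the origin recognition complex and Dbf4 were lower in HP1a WT and Cdc7, the kinase that DBF4 activates, was higher. Orc1 stood at 3.65, 2.67, 7.00 and 4.94 CPM in HP1a WT and 13.4, 15.6, 10.2 and 7.00 CPM in HP1g WT (log2 fold change -1.36, SE 0.31), and the groups overlapped. Cdc7 stood at 14.1, 14.6, 11.3 and 12.7 CPM in HP1a WT and 8.83, 8.51, 8.97 and 7.72 CPM in HP1g WT (log2 fold change 0.62, SE 0.11), without overlap. Dbf4 differed by -0.48 (SE 0.14), the polymerase Pold1 by 0.32 (SE 0.09), Cdk2 by 0.34 (SE 0.07), the chromokinesin Kif22 by 0.80 (SE 0.19) and Lin37 of the MuvB complex by 0.46 (SE 0.10). The remaining calls were Orc6 and, higher, Rbl1. The KO groups gave 14 calls higher and 13 lower among the 97, shares below the 16% and 16.8% of all genes.

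How far the genes moved together from sample to sample was described by their likeness with Mki67 over the 16 samples, as Pearson's r of log2 CPM. Of the other 48 genes 14 had an r of at least 0.8, against 0.286% of 15758 genes, as had 15 of the 97 other pathway genes. The median r was 0.757 over the 48 and 0.0301 over all genes. E2f8, a repressor of the E2F family, was first of all genes with an r of 0.94 and a Spearman's rho of 0.95, and Foxm1, a transcription factor of mitotic genes, had rank 4 with 0.91 and 0.91. For E2f8 both p-values were 1e-05, the smallest that 100000 permutations give (adjusted p = 0.0143 for r and 0.0158 for rho over all genes), and those of Foxm1 were the same. In all, 13 of the 48 genes passed an adjusted p of 0.05 for r in this permutation test and 7 for rho, against 0.247% of all genes for r. The share of all genes for rho was not counted.

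The roles differed in this likeness. The median r was 0.79 for the spindle group, 0.77 for mitotic entry and exit, 0.77 for nucleotide supply, 0.67 for the G1 to S regulators and 0.48 for the replication genes, of which none of 11 reached 0.8. Cdt1 was at -0.38, Ccne2 at -0.13, Pcna at 0.02, Mcm4 at 0.18 and Cenpa at 0.22, whereas Rrm2 was at 0.87, Cdk1 at 0.87 and Top2a at 0.85. The 16 points share their sequencing depth correction and fall into 4 groups. With the group means taken out, 20 of the 48 had an r of at least 0.8, against 0.438% of all genes.

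Part of this likeness rests on the most extreme samples. HP1a KO replicate 2 and HP1a WT replicate 3 lay farthest from the median of Mki67. Without both, 9 of the 48 reached 0.8 (0.241% of all genes), with an r of 0.92 for E2f8 and 0.86 for Foxm1. Without HP1a WT replicate 3 alone 9 reached it (0.216% of all genes), and without HP1a KO replicate 3 alone 22 did (0.381%). Within the 8 samples of the HP1a line 30 of the 48 reached 0.8 (1.47% of all genes), and within those of the HP1g line 10 did (0.673% of all genes).

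**Figure D5:**
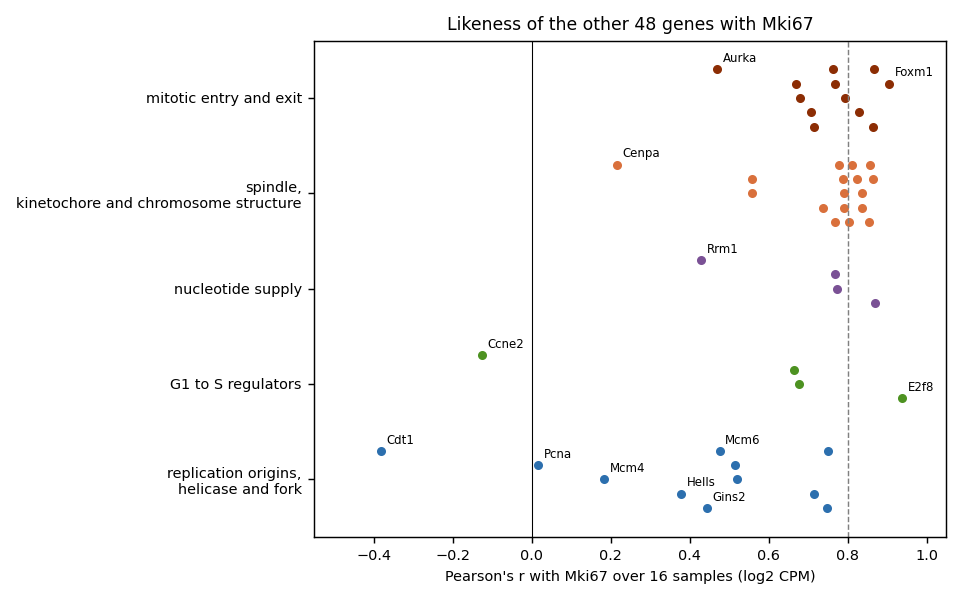
Each point is 1 of the other 48 genes, placed by Pearson's r of its log2 CPM with Mki67 over the 16 samples and by role (height within a role only separates points). The dashed line marks 0.8, which 14 genes reach, none of them a replication gene, and Cdt1, Ccne2, Pcna and Mcm4 lie at the low end.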

How the data were processed

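Splenic memory CD4+ T cells of 16 samples were grouped by the submitters' titles and genotype labels, 4 per group. A treatment label that names another experiment was not used. The authors trimmed reads with Trim Galore, aligned them with STAR and quantified genes with Salmon on GRCm39. They deposited estimated counts per gene, without normalization (11.6% of the values are not whole), and TPM, which keep no depth. Libraries were stranded.

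Here the counts were rounded and fitted with edgeR 4.0.16 in R 4.3.3 (TMM, filterByExpr with a minimum count of 10, glmQLFit and glmQLFTest, Benjamini-Hochberg over all genes tested), on the 8 samples of a comparison or, for the interaction, on all 16. A call is an adjusted p under 0.05. CPM use TMM over 16 samples, and TPM serve comparisons between genes. With total counts of 26694045 to 40199637, a floor of 3 counts covers counting error only. Replicates are separate samples by their labels, and where they were not separate animals the p-values measure technical spread. Of 24 replicate pairs none was alike within sampling noise. Alternatives were limma 3.58.1 on log2(TPM + 1) and log2(TPM + 0.1), for genes averaging 1 TPM or more, DESeq2 1.42.0, RLE size factors, other filters, a replicate block and the omission of each sample. Sequence shared with other genes (at least 150 nt at 98% identity) was sought with blastn 2.17.0. Of the 49 genes, 20 share such sequence with another gene, 7 of them with a gene elsewhere in the genome.

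The 49 genes and the lists were chosen with earlier results of these data known. Given sample by sample are Mki67, Top2a, Cdk1, Ccnb1, Mcm5, Pcna, Rrm2, E2f1 and, per comparison, called genes (up to 10) or else the 5 with the smallest p. Of the other pathway genes, those called are named (up to 10). The other MCM subunits, Mcm7, Ccna2 and further genes given as fold changes, Ccne1, Orc6, Rbl1 and genes named only as extremes or without overlap were named after their values were seen. The tests were checked on simulated counts, in which 100 genes changed by 1 on the log2 scale and 100 by 2. Of those changed by 1, edgeR recovered 68% for HP1a KO against WT, 63% for HP1g KO against WT and 52% for the interaction. Changes below 1 were not simulated. Over the 5 comparisons, 4.24% to 9.35% of the calls were false with edgeR and 14.9% to 19.8% with DESeq2.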

Additional observations from a re-analysis of the deposited data

Results flagged for a closer look

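In each group of 4 samples, the gap of the highest and the lowest sample to its neighbour was compared with the group's range for each of the 49 genes. The gap passed Dixon's 95% critical value for 4 samples in 9 of 196 checks (4.59%), and chance flags about 1 in 20 groups. HP1g WT replicate 2 stood alone at the high end for 6 genes of mitosis: Ccnb1 at 7.05 CPM against 4.72 to 5.08 CPM in the other 3 samples, Bub1 at 5.59 against 3.71 to 4.03, Birc5 at 15.8 against 9.96 to 10.4, Cenpa at 96 against 79.2 to 82, Nusap1 at 10.4 against 7.42 to 7.75 and Melk at 5.49 against 3.42 to 3.5. HP1g KO replicate 1 stood alone at the low end for Kif11 (19 CPM against 23.4 to 24) and E2f8 (6.32 CPM against 8.55 to 8.73). HP1a KO replicate 4 stood alone at the high end for Ncapg, at 8.15 CPM against 4.47 to 4.76.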

How the results depend on the processing

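None of the 49 genes was called between KO and WT in either line, or in the interaction, under any alternative run. Between the WT groups, 2 were called higher and 2 lower. Higher calls were 0 with an absolute log2 fold change above 1 as well, 0 with the replicate block, 0 with limma on either log2 TPM scale, 5 with DESeq2 and 0 to 5 when 1 sample was left out. Lower calls were 1 with the fold threshold, 1 with the block and 1 to 2 when 1 sample was left out. Over all genes, 47 were called higher and 235 lower with the fold threshold, and 1139 and 1684 with DESeq2. When 1 sample was left out, 102 to 877 of all genes were called higher and 471 to 1308 lower. Between the KO groups (3 higher and 3 lower), higher calls were 0 with the fold threshold, 5 with DESeq2, 0 on either TPM scale and 0 to 8 when 1 sample was left out. Lower calls there were 1, 5 with DESeq2, 5 with at least 10 counts in every sample, and 2 to 6 when 1 sample was left out. Over all genes, 75 were called higher and 576 lower between the KO groups with the fold threshold, and 2575 and 2883 with DESeq2. When 1 sample was left out, 1483 to 2591 of all genes were called higher there and 1867 to 2611 lower. Genes with an r of at least 0.8 with Mki67 (14) numbered 9 on log2 TPM (0.127% of all genes) and 9 to 22 when 1 sample was left out (0.216% to 0.381%). An r of 0.7 was passed by 30 (0.698% of all genes) and 0.9 by 2 (0.0254%). The KO comparison and the omission of samples from the likeness were chosen after seeing the data. Apart from the stricter thresholds and fewer samples, the cause was not tested.

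The labels do not say whether same-numbered replicates were paired, and the main tests used no replicate block. Deviations of same-numbered replicates correlated between 0.0947 and 0.2286 in the HP1a line and between 0.0027 and 0.1542 in the HP1g line. Between the WT groups they correlated between -0.2034 and -0.0650. In that order, 3, 2 and 0 of 4 correlated best with their own number. Pairing itself was not tested. With the block, Pcna, Prc1 and Plk1 lost their call between the WT groups (adjusted p 0.0804, 0.0804 and 0.0858, edgeR's quasi-likelihood test), and all genes called higher there fell from 674 to 111 and lower from 1222 to 466. DESeq2 called 171 genes higher and 81 lower in HP1g KO, where edgeR called 38 and 11, and 1139 higher between the WT groups.

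Uncalled differences near 0 changed sign. In HP1g KO, Ccnb1 was 0.068 and 0.076 on the TPM scales and -0.30 to 0.0056 when 1 sample was left out, and Mki67 -0.18 to 0.030. Between the WT groups E2f1 ran from -0.088 to 0.027 and Mcm5 from -0.075 to 0.090. Between the KO groups Mki67 was 0.0078 without the filter and -0.13 to 0.11 when 1 sample was left out, and Mcm5 -0.075 and -0.077 on the TPM scales and -0.031 to 0.10. In the interaction, Pcna was -0.0046 with RLE factors, -0.0046 with the block, -0.0083 with at least 10 counts, -0.0017 with DESeq2, -0.11 and -0.11 on the TPM scales and -0.060 to 0.054 when 1 sample was left out. There Mcm5 was -0.086 and -0.088 on the TPM scales and -0.052 to 0.12, Hells 0.12 and 0.15 on the TPM scales and -0.50 to -0.03, Cdk1 -0.25 to 0.089, Top2a -0.13 to 0.14 and Rrm2 -0.30 to 0.015. Every 1 of the 49 genes had at least 71 counts in each sample, so that none was lost to low counts.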
